A study of Lathyrus oleraceus with 6 samples.

Results

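Psat5g247880 and Psat5g247960, annotated as S-locus lectin kinases, and Psat5g248000, annotated as a calcium-binding EF-hand protein, are neighbouring loci on chromosome 5 of pea. These 3 loci, out of 44756 in the count table, were picked by identifier because all of them had been called higher in CO8-DA-treated roots. The contrast of CO8-DA with control therefore chose them, and its values for them are a description and not a test. The data are 6 RNA-seq libraries from roots of wild-type seedlings of cultivar Frisson, which were 4 to 5 days old when treated. In 3 libraries the seedlings had been kept for 24 h in dilute Jensen's medium with 1e-05 M CO8-DA, and in the other 3 for 24 h in the same medium alone. CO8-DA is a mixture of deacetylated chitooligosaccharides that consist of short glucosamine chains. Each replicate pooled the roots of a few plants, so one library does not stand for one plant, and p-values measure the spread between these pools.

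S-locus lectin kinases, also called G-type lectin or S-domain receptor kinases, are receptor-like kinases of the plasma membrane. They carry a mannose-binding-type lectin domain and an S-locus glycoprotein domain outside the cell and a kinase domain inside it. The family is named after the Brassica receptor of self-incompatibility, and some Arabidopsis members take part in the perception of microbial molecules. EF-hand proteins bind calcium through a helix-loop-helix motif and relay calcium signals, which rise in plant cells soon after chitin fragments are perceived.

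The library totals lay between 12315774 and 19534336 estimated counts. Legumin, a seed storage protein, was near 0 in these roots, with a summed level of 0.153 to 0.496 CPM over its 3 listed loci in CO8-DA and 0 to 0.143 CPM in control libraries. The summed level of 3 root cap loci was 150 to 174 CPM in CO8-DA and 116 to 134 CPM in control libraries, and its members differed in direction. Psat5g246320 was called lower in CO8-DA (log2 fold change -2.79), while Psat7g224320 and Psat1g165640 had log2 fold changes of 1.40 and 1.27 and were not called. The narrow range of the control sums hides a wide spread between the control libraries. In control replicates 1, 2 and 3, Psat7g224320 had 86.4, 9.95 and 72.7 CPM and Psat5g246320 had 47.7, 106 and 57.5 CPM. The summed level of 3 photosystem II D1 loci, 2 of which hold identical counts, was 4.72 to 17.1 CPM in CO8-DA and 1.83 to 4.76 CPM in control libraries, and none of them was called. The part of these tissue genes in the results was not tested. CPM here are estimated counts scaled to a common library size by the TMM method, and they are not divided by gene length. Levels of different loci are therefore not ranked against each other.

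Psat5g247880 comes first of the 3 loci in the order of identifiers. Its text in the study's annotation names lectin, S-locus glycoprotein, PAN and kinase domains. It had 36.37, 25.05 and 47.6 estimated counts in CO8-DA replicates 1, 2 and 3, against 11.4, 10.11 and 11.92 in control replicates 1, 2 and 3. The levels were 2.84, 1.57 and 2.44 CPM in CO8-DA libraries and 0.773, 0.825 and 0.852 CPM in control libraries. The groups did not overlap. The coefficient of variation was 28.3% in CO8-DA and 4.89% in control, where counting error alone gives about 30.0% at such counts, so the closeness of the control libraries says nothing of the spread between roots. The mean was 2.28 ± 0.646 CPM in CO8-DA and 0.817 ± 0.0399 CPM in control (SD, n = 3 each), a fitted log2 fold change of 1.49 with a standard error of 0.33.

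Psat5g247960 lies 2 positions further on and has the same best database match as Psat5g247880. Its annotated domains are the lectin, S-locus glycoprotein and kinase domains, with no PAN domain named. It had 16.57, 28.51 and 30.51 estimated counts in CO8-DA replicates 1, 2 and 3, against 5.97, 3.72 and 2.57 in control replicates 1, 2 and 3. These are 1.29, 1.79 and 1.56 CPM in CO8-DA libraries and 0.405, 0.304 and 0.184 CPM in control libraries. The lowest CO8-DA library lay well above the highest control library. The mean was 1.55 ± 0.249 CPM in CO8-DA and 0.297 ± 0.111 CPM in control (SD, n = 3 each). The log2 fold change of 2.29 (standard error 0.38) was the highest of the 3 loci. It rests on 12.26 estimated counts over the whole control group, against 75.59 over the CO8-DA group.

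Psat5g248000 follows next to Psat5g247960. The annotation text of this EF-hand protein includes responses to wounding, to chitin and to auxin. It had 565, 663 and 1475 counts in CO8-DA replicates 1, 2 and 3, against 372, 205 and 263 in control replicates 1, 2 and 3. The levels were 44.1, 41.7 and 75.5 CPM in CO8-DA libraries and 25.2, 16.7 and 18.8 CPM in control libraries. The groups did not overlap, and CO8-DA replicate 3 stood well above the other CO8-DA libraries. The mean was 53.7 ± 18.9 CPM in CO8-DA and 20.2 ± 4.43 CPM in control (SD, n = 3 each), a log2 fold change of 1.41 with a standard error of 0.26. Without CO8-DA replicate 3 the log2 fold change was 1.08. In whole roots, a change in the number of cells of a type and a change in RNA per cell cannot be told apart.

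**Figure D1:**
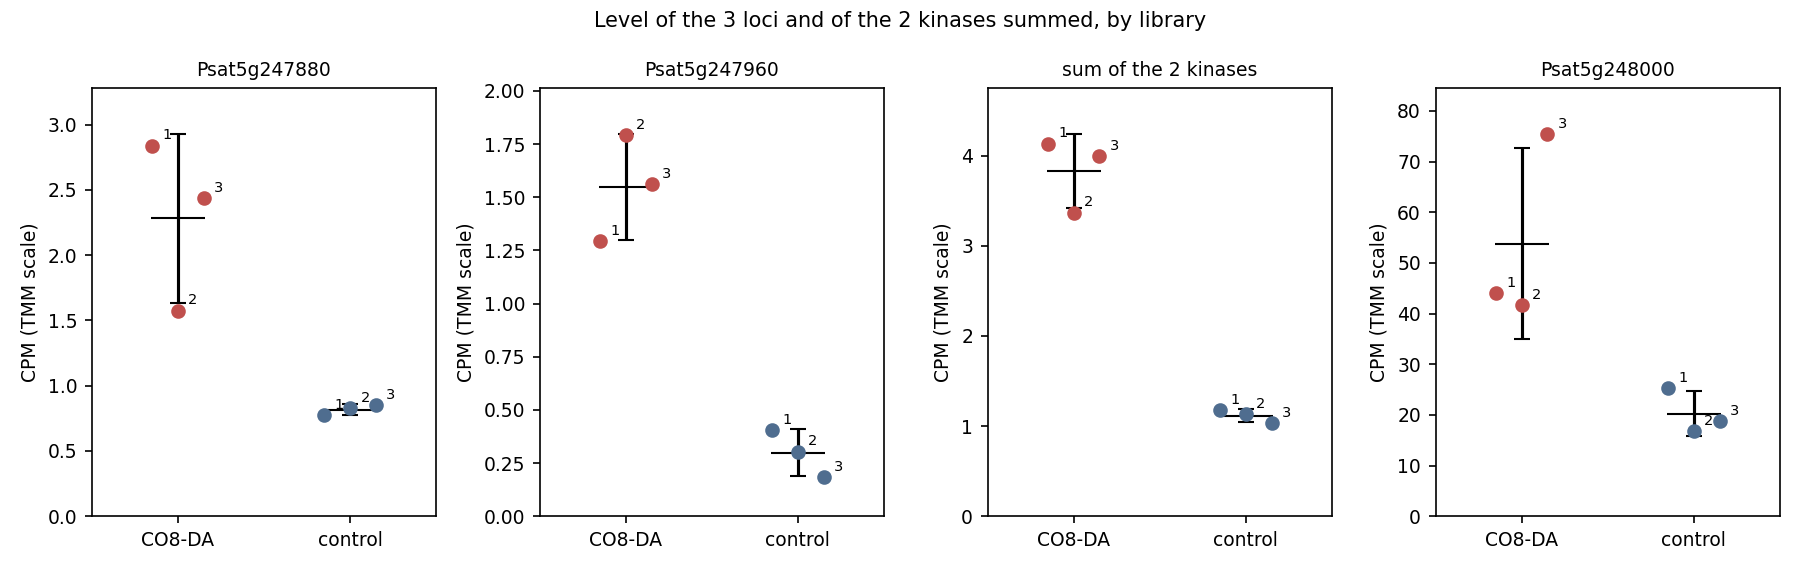
Level of Psat5g247880, Psat5g247960, their sum and Psat5g248000 in CPM on the TMM scale (vertical axes, from 0) in the CO8-DA and control libraries. Points are libraries with their replicate number, and the bars are the mean and SD of 3 libraries. All 3 loci have every CO8-DA point above every control point, and Psat5g248000 has its highest point, 75.5 CPM, in CO8-DA replicate 3.

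The values that chose the 3 loci were the adjusted p of the fit over all loci, under 0.05, and a log2 fold change of at least 1. With edgeR's quasi-likelihood test the adjusted p was 0.0464 for Psat5g247880, 0.0151 for Psat5g247960 and 0.0228 for Psat5g248000. All 3 were thus called higher, as were 2.63% of the 21293 tested loci, and all 3 had groups that did not overlap, as did 13.6% of the tested loci in that direction. Psat5g247880 lay just inside the threshold. The other tested loci with identifiers from Psat5g247000 to Psat5g249000 lay outside it. The kinase locus Psat5g247800 had the highest log2 fold change among them, 1.26, with an adjusted p of 0.200. Psat5g248880 had the lowest adjusted p, 0.116 (0.0709 with DESeq2), with a log2 fold change of 0.70. With 1 library left out, the edgeR adjusted p of Psat5g247800 ranged from 0.0660 (without control replicate 1) to 0.445 (without control replicate 3). DESeq2 gave adjusted p of 0.0389, 0.00800 and 6.36e-06 for the 3 loci in the order above, and called 2.89% of its loci higher. With all libraries kept, Psat5g247880 was not called by limma-voom (adjusted p = 0.0744) or by edgeR with a replicate block by title number (0.0672) or by library number (0.0910). The library number is the number that ends each deposited column name, and the labels do not say what it stands for. In the block by library number, control replicate 1 and CO8-DA replicate 3 each stood alone and did not inform the contrast. The edgeR call of Psat5g247880 was lost without any one of the 6 libraries (adjusted p 0.0594 to 0.170). That of Psat5g247960 was lost without CO8-DA replicate 2 or 3 or control replicate 3 (adjusted p up to 0.0738), and that of Psat5g248000 was lost without CO8-DA replicate 1 or control replicate 2 or 3 (adjusted p up to 0.0999). The log2 fold changes of the 3 loci stayed above 1 in each of these fits.

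The 2 kinases differed from the EF-hand locus in how their counts had been made. RSEM, the authors' counting tool, splits a read among all loci it fits, and estimates with decimals are the trace of such splitting. Both kinases had estimates that were not whole in all 6 libraries, whereas Psat5g248000 was whole in every library. In the window of 47 loci with identifiers from Psat5g247000 to Psat5g249000, 12 loci had estimates that were not whole. The estimates of Psat5g247800, Psat5g247840, Psat5g247880 and Psat5g247960 added up to whole numbers within 0.01 in all 6 libraries. This was 1 of 6 such sets among 1573 sets of 2 to 5 loci tried with a tolerance of 0.02, and the set without Psat5g247840 passed too, so the place of Psat5g247840 in it is uncertain. Their sums were 76.01, 86 and 134 in CO8-DA replicates 1, 2 and 3, against 41, 25.01 and 20 in control replicates 1, 2 and 3. The fractions of these loci cancel within the set, while the sum of the 2 kinases alone was 52.94, 53.56 and 78.11 in CO8-DA and 17.37, 13.83 and 14.49 in control. This arithmetic was looked for after the counts had been seen.

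Psat5g247800 is described as a G-type lectin S-receptor-like kinase, and Psat5g247840 has no description in the tables used. Psat5g247800 had 20.08, 27.46 and 50.89 estimated counts in CO8-DA replicates 1, 2 and 3, against 19.63, 9.18 and 4.51 in control replicates 1, 2 and 3. Psat5g247840 stayed at 2.99 to 5 estimated counts in CO8-DA and 1 to 4 in control libraries and was left out by edgeR's filter on low counts. Within the set, the share given to Psat5g247960 was 21.8% to 33.2% in CO8-DA libraries and 12.9% to 14.9% in control libraries, with no overlap. Psat5g247960 was chosen for its rise in this contrast, so its higher share is a description and not a separate result. Its control shares rest on 5.97, 3.72 and 2.57 estimated counts in replicates 1, 2 and 3. Counting error alone gives a coefficient of variation of about 49.5% at such counts. The share given to Psat5g247880 was 29.1% to 47.8% in CO8-DA and 27.8% to 59.6% in control libraries, and there the groups overlapped. How far these shares follow the transcripts or the division of reads was not tested.

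**Figure D2:**
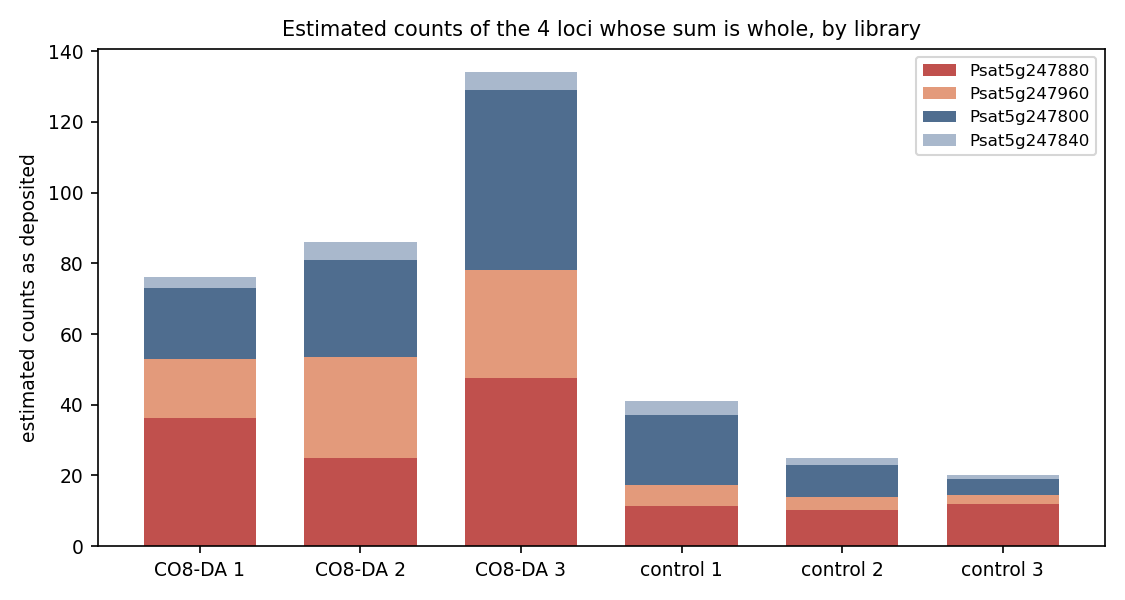
Estimated counts as deposited (vertical axis, from 0) in each library, stacked over Psat5g247880, Psat5g247960, Psat5g247800 and Psat5g247840, the 4 loci whose estimates add up to whole numbers. The stacks end at 76.01, 86 and 134 in the CO8-DA libraries and at 41, 25.01 and 20 in the control libraries, and these heights are not scaled for library size.

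Summing the 4 loci removes the effect of how reads were divided among them, and summing the 2 kinases removes only the division between those 2. The 2 kinases together had 3.37 to 4.13 CPM in CO8-DA libraries and 1.04 to 1.18 CPM in control libraries. Their mean was 3.83 ± 0.409 CPM in CO8-DA and 1.11 ± 0.0724 CPM in control (SD, n = 3 each), a log2 fold change of 1.80 (standard error 0.24). Fitted as a single row, the sum had an edgeR adjusted p of 0.00603, and it stayed under 0.05 with any one library left out (0.0112 to 0.0360). The 4 loci together had 5.93, 5.40 and 6.86 CPM in CO8-DA libraries and 2.78, 2.04 and 1.43 CPM in control libraries, with a log2 fold change of 1.54 ± 0.27 (standard error) and an adjusted p of 0.0198 from edgeR. The adjusted p of this sum rose above 0.05 without any one library other than control replicate 1 (up to 0.0771). Both sums contain loci chosen from this contrast and are therefore given as a description.

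The balance between the 2 kinases was compared between the groups. Its difference between the groups reflects the gap between the 2 log2 fold changes that helped to choose these loci. The comparison is therefore not independent of that choice and is given as a description. The log2 ratio of Psat5g247960 to Psat5g247880, with 0.5 added to each rounded count, was -1.06, 0.21 and -0.62 in CO8-DA replicates 1, 2 and 3, against -0.82, -1.22 and -1.84 in control replicates 1, 2 and 3. The libraries of both groups overlapped. The mean was -0.49 ± 0.65 in CO8-DA and -1.29 ± 0.51 in control (SD, n = 3 each), a difference of 0.80 (exact permutation test, two-sided p = 0.2). With 3 libraries against 3 this test cannot go below 0.1, so it leaves undecided whether the balance differed.

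The neighbours were examined along the chromosome. Locus order was taken from the identifiers. Besides the 3 loci the window holds 44 loci, of which 18 had 0 counts in all libraries, 10 had too few counts to be tested by edgeR and 16 were tested. None of the 16 was called by edgeR or by DESeq2, against 3.13% (edgeR) and 3.71% (DESeq2) called in either direction among all tested loci, and 4 of them had an unadjusted edgeR p under 0.05, against 19.1% of all tested loci. Their median log2 fold change was 0.03, beside -0.01 over all tested loci.

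The 3 loci and Psat5g247800 lie in a run of 6 loci. The remaining loci of this run are Psat5g247840, whose few counts overlapped between the groups, and Psat5g247920, between the kinases, which was at 0 in all libraries. All CO8-DA libraries were above all control libraries also outside the run, at Psat5g247640, Psat5g248280, Psat5g248360 and Psat5g248880, none of which was called. The next tested locus before the run, Psat5g247760, had a log2 fold change of -0.22, with a 95% interval from -0.90 to 0.45. Behind it the 5 loci from Psat5g248040 to Psat5g248200 were at 0 in all libraries. The next tested locus there was Psat5g248280, with 17.1 CPM in CO8-DA and 11.6 CPM in control, a log2 fold change of 0.56 (edgeR adjusted p = 0.135). A well-expressed neighbour, Psat5g247520, had 89.7 CPM in CO8-DA and 91.3 CPM in control, with a log2 fold change of -0.03 and a 95% interval from -0.26 to 0.20. These 3 neighbours were picked out for their position or level after the values were seen.

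Psat5g248360, 9 positions behind Psat5g248000, is a further G-type lectin S-receptor-like kinase. It had 2, 2 and 5 counts in CO8-DA replicates 1, 2 and 3, against 1, 1 and 0 in control replicates 1, 2 and 3, a ratio of 3.82 with an exact counting interval from 0.791 to 36.3. No difference could be shown at this depth. Psat5g247640 is the only other neighbour described in the tables used, as a hypothetical protein. It had 7, 8 and 11 counts in CO8-DA and 4, 3 and 4 counts in control replicates 1, 2 and 3, with no overlap. It was left out by edgeR's filter, and DESeq2 gave a log2 fold change of 1.00 (adjusted p = 0.680).

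**Figure D3:**
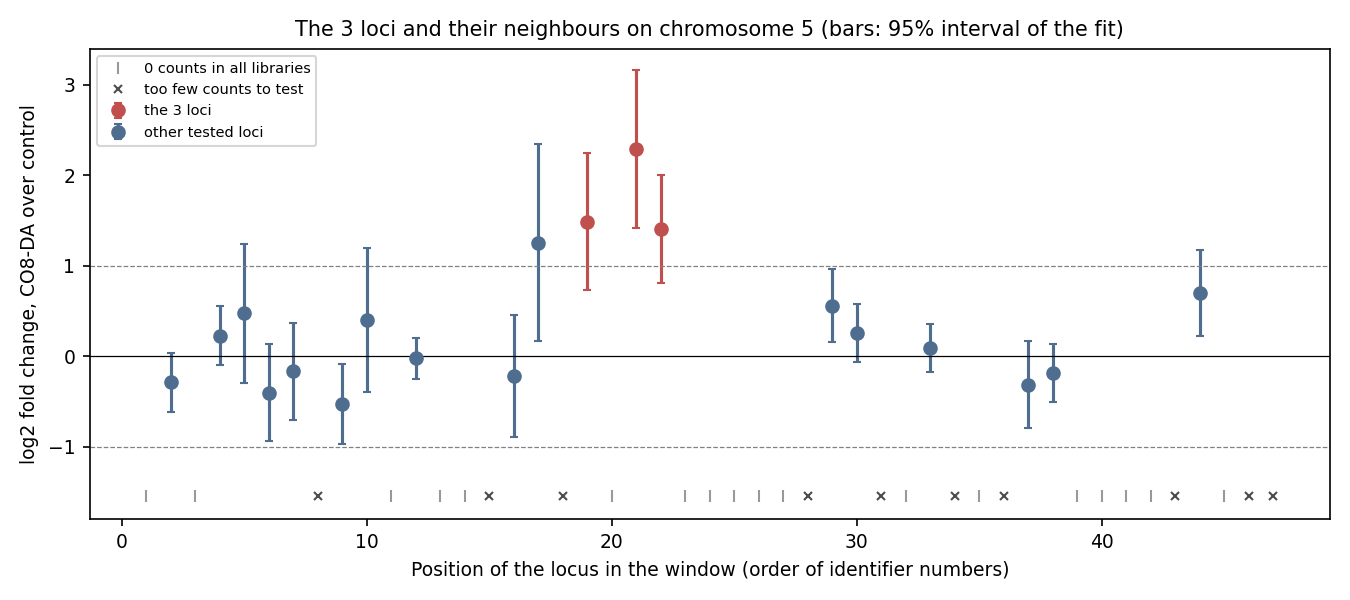
Fitted log2 fold change of CO8-DA over control (vertical axis) for the tested loci of the window, in the order of their identifiers (horizontal axis, position from 1 to 47). Bars are 95% intervals, dashed lines mark 1 and -1, and marks at the bottom show loci at 0 in all libraries or with too few counts. The 3 loci, in red, stand at 1.49, 2.29 and 1.41, and the 16 other tested loci lie between -0.53 and 1.26.

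Other S-domain kinases of the genome were compared next. The study's list of changed genes holds 6 loci with such a domain or description, among them Psat5g247880 and Psat5g247960. The study chose that list on these libraries, so its counts are not independent evidence of a direction. EdgeR called 5 of the 6 higher and none lower, beside 2.63% called higher and 0.493% called lower among all tested loci. The median log2 fold change was 1.66, beside -0.01 over all tested loci. Without any one CO8-DA library, or without control replicate 3, only 1 or 2 of the 6 were called. Psat3g147280, described as an S-locus lectin kinase, had 83, 165 and 142 counts in CO8-DA replicates 1, 2 and 3, against 32, 25 and 29 in control replicates 1, 2 and 3. Its log2 fold change was 1.94 ± 0.24 (standard error), with an edgeR adjusted p of 0.00454, and its counts are whole. Psat7g107120 and Psat7g161200 rose by 1.72 and 1.61 on the log2 scale, with edgeR adjusted p of 0.0205 and 0.0284. The members of the family thus called lie on chromosomes 3, 5 and 7.

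The sixth locus, Psat5g041320, went the other way, with 12, 1 and 7 counts in CO8-DA replicates 1, 2 and 3, against 86.62, 9 and 73.46 estimated counts in control replicates 1, 2 and 3. Its groups overlapped, with control replicate 2 far below the other control libraries, and edgeR did not call it (log2 fold change -3.20, standard error 0.88, adjusted p = 0.0946), while DESeq2 called it lower. A further 8 loci with such a description stand in the readable part of the study's full table, which runs down from the highest fold changes, so their values lean to the positive side by choice. None of these 8 was called by edgeR or DESeq2, which gave no adjusted p for Psat5g248360, and edgeR's count filter left 4 of them out. Psat4g038280, Psat0s1877g0080, Psat5g247800 and Psat6g029120 passed it, with log2 fold changes of 1.43, 1.37, 1.26 and 0.98 and edgeR adjusted p of 0.200 to 0.252. Psat1g210480, Psat5g267120 and Psat5g229760 had at most 9 counts in any library and DESeq2 adjusted p of 0.239, 0.869 and 0.828. For Psat1g210480 these were 2, 6 and 9 counts in CO8-DA replicates 1, 2 and 3, against 1, 0 and 0 in control replicates 1, 2 and 3, a ratio of 14.4 with an exact counting interval from 2.26 to 603.

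For Psat5g248000 the comparison was with 18 EF-hand loci of the study's list, itself included, which again was chosen on these libraries and is no independent evidence of a direction. EdgeR called 14 of them higher and 1 lower, beside 2.63% called higher and 0.493% called lower among all tested loci. The median log2 fold change was 1.76. Psat5g248000 stood at 1.41, below that median. The highest was Psat4g065400, with 62, 85.55 and 143.17 estimated counts in CO8-DA replicates 1, 2 and 3, against 0, 1 and 0 in control replicates 1, 2 and 3. Its ratio was 247, with an exact counting interval from 44.0 to 9795. Psat5g140800, described as a CML38-like calcium-binding protein, had a log2 fold change of 4.66 ± 0.46 (standard error; adjusted p = 0.00177, edgeR).

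Psat3g140480 and Psat2g020680 had the lowest values of the EF-hand list. Psat3g140480, described as a respiratory burst oxidase-like protein, which makes superoxide at the plasma membrane, had 38, 34 and 31 counts in CO8-DA replicates 1, 2 and 3, against 140, 194 and 116 in control replicates 1, 2 and 3. It was called lower, with a log2 fold change of -2.34 and an adjusted p of 0.00825 by edgeR (standard error 0.33). Psat2g020680, described as a calmodulin-domain protein kinase, had a log2 fold change of -1.97 and was not called by edgeR (adjusted p = 0.118), while DESeq2 called it lower. Another calcium-dependent protein kinase of the list, Psat3g028080, was called higher, with a log2 fold change of 1.26 (edgeR adjusted p = 0.0183).

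**Figure D4:**
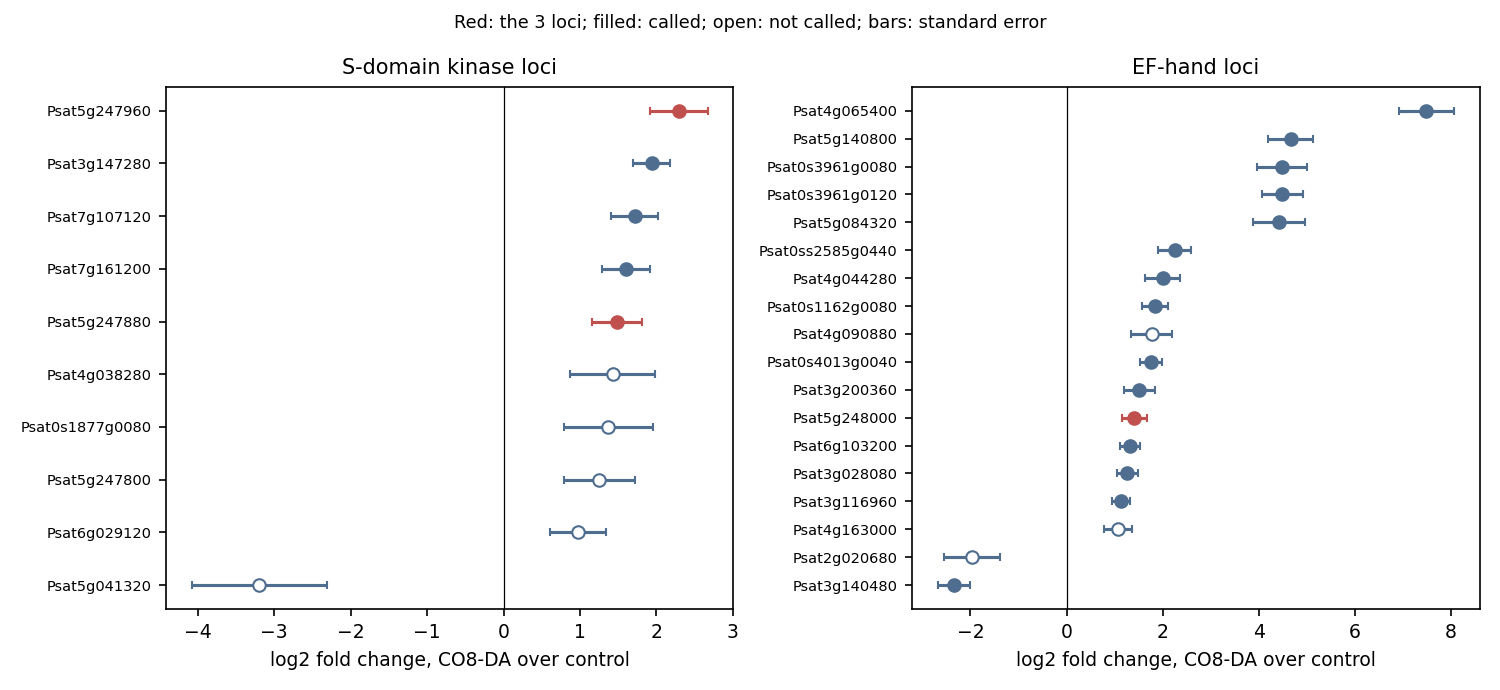
Fitted log2 fold change of CO8-DA over control (horizontal axes) for the tested S-domain kinase loci (left panel, from both lists) and the EF-hand loci of the study's list (right panel). Bars are standard errors, red points are the 3 loci, filled points were called by edgeR and open points were not. Psat5g247960 at 2.29 heads the kinases, and Psat5g248000 at 1.41 lies below the EF-hand median of 1.76.

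The library with the highest level was counted in both families, without a test between them. Of the 14 EF-hand loci called higher, 13 had their highest CO8-DA level in replicate 3, among them Psat5g248000. Of the 5 S-domain kinases called higher, none did, with 2 highest in replicate 1 and 3 highest in replicate 2. Among all 561 loci called higher, 36.4% were highest in CO8-DA replicate 1, 19.6% in replicate 2 and 44.0% in replicate 3. Over all tested loci, 37.7% were highest in replicate 3. These loci share libraries, so the counts describe the libraries, and the part of replicate 3 in the EF-hand levels was not tested beyond leaving it out.

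Across the 6 libraries the log2 CPM of the 3 loci moved together, with Pearson's r of 0.86 between the 2 kinases, 0.88 between Psat5g247880 and Psat5g248000 and 0.91 between Psat5g247960 and Psat5g248000. Psat5g247800, which was not called, had r of 0.70 with Psat5g247880, 0.87 with Psat5g247960 and 0.88 with Psat5g248000. These values are a description over 6 libraries in 2 groups, and each r contains the difference between the groups, the contrast that chose the 3 loci. The patterns most like Psat5g247880 were those of Psat6g174080, Psat1g200680 and Psat1g038120, with r of 0.987 to 0.994. The patterns most like Psat5g247960 were those of Psat7g147000, described as a P-loop NTPase domain protein, Psat1g025840 and Psat4g203680, described as a vacuolar iron transporter-like protein, with r of 0.998 each. The patterns most like Psat5g248000 were those of Psat7g164160, Psat0s3591g0040 and Psat7g012760, with r of 0.991 to 0.996. Many loci came close, since 137, 365 and 185 loci had an r over 0.95 with Psat5g247880, Psat5g247960 and Psat5g248000. Pearson's r does not take in the size of a change. Of the loci named as most alike, Psat1g038120, Psat7g147000 and Psat4g203680 were called higher by edgeR, with log2 fold changes of 1.68, 1.78 and 1.29. The rest were not called. Their log2 fold changes were 0.25 for Psat6g174080, 0.63 for Psat1g200680 and 0.35 for Psat1g025840. Those like Psat5g248000 had 0.22, 0.75 and 0.58 in the order above.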

How the data were processed

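Roots were sequenced in 6 libraries, 3 per group, taken to groups and replicate numbers by the sample titles. Per the labels and the paper's methods, the authors used Trimmomatic 0.39 for trimming and Bowtie2 2.4.4 for alignment to the pea genome v1a and deposited estimated counts per gene from RSEM 1.3.1, without normalization. No coordinates, gene lengths or sequences were used here.

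After rounding, edgeR 4.0.16 was run under R 4.3.3 (TMM, filterByExpr, glmQLFit, glmQLFTest), with Benjamini-Hochberg adjustment over 21293 loci. A call needed an adjusted p below 0.05 together with a log2 fold change of 1 or more in size. Every edgeR p is two-sided. Those of single loci come from this fit unless another setting is named. The sums, blocks, other settings and left-out libraries were each refitted, with their own adjustment. The standard error is the size of the log2 fold change divided by the square root of F. An estimate within 0.005 of a whole number counted as whole, and a sum within 0.02. The common dispersion corresponds to a biological coefficient of variation of 18.8%. Counting intervals (exact conditional binomial, 95%) cover counting error only. The tools were tested on simulated data, in which all changes put in were larger than those of Psat5g247880 and Psat5g248000. That test therefore does not cover changes of their size.

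The 3 loci and the lists were chosen with earlier results of these data known. Named are the 3 loci, described or called loci of the window, the S-domain kinases, the 2 highest and 2 lowest EF-hand loci and the 3 most similar loci for each. Descriptions come from the study's supplementary tables, of which the full table is held in part. Alternatives were DESeq2 1.42.0, limma-voom (limma 3.58.1), glmTreat, other scalings and filters, unrounded counts, blocks and each library left out. The sum of the 4 loci was added after seeing the data. Plots used Python 3.11.15 with matplotlib 3.10.9.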

Additional observations from a re-analysis of the deposited data

How the results depend on the processing

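Under the 10 alternatives that keep all libraries, no value of the 3 loci or of their sums changed sign, and no other locus of the window was called. With limma-voom Psat5g247880 was not called (log2 fold change 1.41, adjusted p = 0.0744). Tested against a log2 fold change of 1 with glmTreat, 233 loci were called in all, 1 of the S-domain list and 5 of the EF-hand list. The log2 fold changes of 1.49, 2.29 and 1.41 of Psat5g247880, Psat5g247960 and Psat5g248000, and of 1.80 and 1.54 for the sums of the 2 kinases and the 4 loci, then did not pass, because they were tested against 1 in place of 0. With 1 library left out, 371 to 943 loci were called, with 1 to 5 of the S-domain list and 10 to 15 of the EF-hand list. The log2 fold change then lay between 1.32 and 1.69 for Psat5g247880, 2.08 and 2.53 for Psat5g247960, 1.08 and 1.60 for Psat5g248000, 1.74 and 1.88 for the 2 kinases and 1.32 and 1.81 for the 4 loci. DESeq2 called 891 loci in place of 666. The low counts of the kinases, 33.43 and 12.26 over the control group, limit what can be said of either alone.

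Whether the replicate numbers pair the libraries could not be settled with 3 libraries per group. Between libraries of the same title number, deviations from the group means correlated at 0.226, 0.0449 and 0.151. Between libraries of different title numbers they correlated at -0.201 to 0.0869. By library number, CO8-DA replicate 1 goes with control replicate 3, at -0.119, and CO8-DA replicate 2 with control replicate 2, at 0.0449. With the replicate block by title number Psat5g247880 was not called (log2 fold change 1.47, adjusted p = 0.0672), and with the block by library number it was not called either (1.35, adjusted p = 0.0910), while 1094 loci were called in all. Control replicate 1 and CO8-DA replicate 3 have library numbers that no other library shares. In that block they add nothing to the contrast, which rests on the remaining libraries. The cause of the changed calls was not tested. The blocks changed no other call among the 3 loci and their sums.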

Other observations

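Other loci of the window also shared reads with close neighbours. The estimates of Psat5g247240 and Psat5g247320 added up to whole numbers in all 6 libraries, and so did those of Psat5g248240, Psat5g248280, Psat5g248320, Psat5g248560 and Psat5g248640 within 0.01. Psat5g247320 had all CO8-DA libraries below all control libraries, with a mean of 7.59 CPM in CO8-DA and 11.0 CPM in control, and did not pass the correction (log2 fold change -0.53, edgeR adjusted p = 0.181). Psat5g248880, with whole counts of 142, 181 and 232 in CO8-DA and 135, 66 and 92 in control replicates 1, 2 and 3, had the lowest adjusted p among the other loci of the window (log2 fold change 0.70, edgeR adjusted p = 0.116). These loci were chosen with their values in view, and no hypothesis was tested on them.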
